A study of Mus with 15 samples.

Results

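Hopx (gene ID 74318, chr5:77086986-77115123 on mm10, 28138 bp) was followed through the H2Aub peak lists of mouse thalamus. H2Aub (H2AK119ub in the labels) is histone H2A that carries a single ubiquitin near its C-terminal end. Every peak that overlapped the gene body or the 20 kb on either side of it was taken, and 49 of the 278739 peaks that the 11 lists hold on chromosomes 1 to 19, X and Y met that rule. They merged into 17 regions and came from 10 of the 11 lists.

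H2Aub was profiled by ChIPmentation, in which immunoprecipitated chromatin is tagged with adapters by the Tn5 transposase while still on the beads. WT mice gave 3 libraries under cocaine and 3 under saline, and cKO mice gave 2 under cocaine and 3 under saline, all labelled as thalamus of mice aged 2 to 4 months. WT mice carried the genotype label Maged1 Loxp, that is, a floxed Maged1 allele without the deletion, so the controls were floxed as well. In cKO mice Maged1 was deleted by a Cre recombinase driven by the vGluT2 promoter, which is active in glutamatergic neurons, so other thalamic cells kept the gene. All mice first received saline for 3 days, then intraperitoneal injections of either cocaine at 20 mg/kg or vehicle for 5 days. Per the labels 3 to 4 thalami were pooled in each sample, and the study's methods allow a smaller pool. Maged1 lies on the X chromosome, and the methods of the study describe males, which carry 1 copy. The comparisons ask whether repeated cocaine was accompanied by a change in H2Aub at Hopx, and whether that depended on Maged1.

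HOPX is an atypical and very small homeodomain protein that does not bind DNA on its own. It acts through partners, among them serum response factor and histone deacetylases in heart muscle, and its gene is used as a marker of radial glia, astrocytes and several quiescent stem cells. H2Aub is laid down by Polycomb repressive complex 1, whose RING1 subunits are the ubiquitin ligases, and it marks silent developmental genes such as the Hox clusters in broad domains. Removal of the ubiquitin is carried out by deubiquitinases such as USP7 and the BAP1 complex.

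The lists themselves were of very unequal length. On chromosomes 1 to 19, X and Y they held 7271 to 80713 peaks and covered 4.24 to 27.6 Mb. The cKO replicate 1 lists stood apart, with 54653 peaks under cocaine and 80713 under saline on these chromosomes, against at most 26055 in any other list. A further 3 and 7 peaks of those lists lay on other sequences and were left out. Their strongest peaks reached a fold enrichment over input chromatin of 31.2 and 52.6, against at most 12.2 elsewhere. The shortest list was that of cKO saline replicate 3, which had no peak around Hopx. The lists hold no read counts, so the sequencing depth of each library is not known here beyond the minimum that the study sets for all samples. The chromatin came from all cells of the thalamus, so a mark in few cells and a weak mark in many cannot be told apart. The labelled tissue could not be checked by marker expression in these lists.

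H2Aub around Hopx formed short, separate peaks. The 49 peaks were 132 to 1172 bp wide with a median of 350 bp. Over the 68138 bp examined, 82.8% of bases lay under no peak of any library and 7.67% under peaks of at least 2 libraries. Of the peaks, 24 lay in the gene body, 22 beyond its higher-coordinate end and 3 beyond its lower-coordinate end. The gene table used gives neither strand nor transcript starts. Hopx is transcribed towards lower coordinates as far as general knowledge of the gene goes, so its higher-coordinate end is called the gene start here, and values are given for both ends. The other annotated transcript starts were not analysed here.

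**Figure D1:**
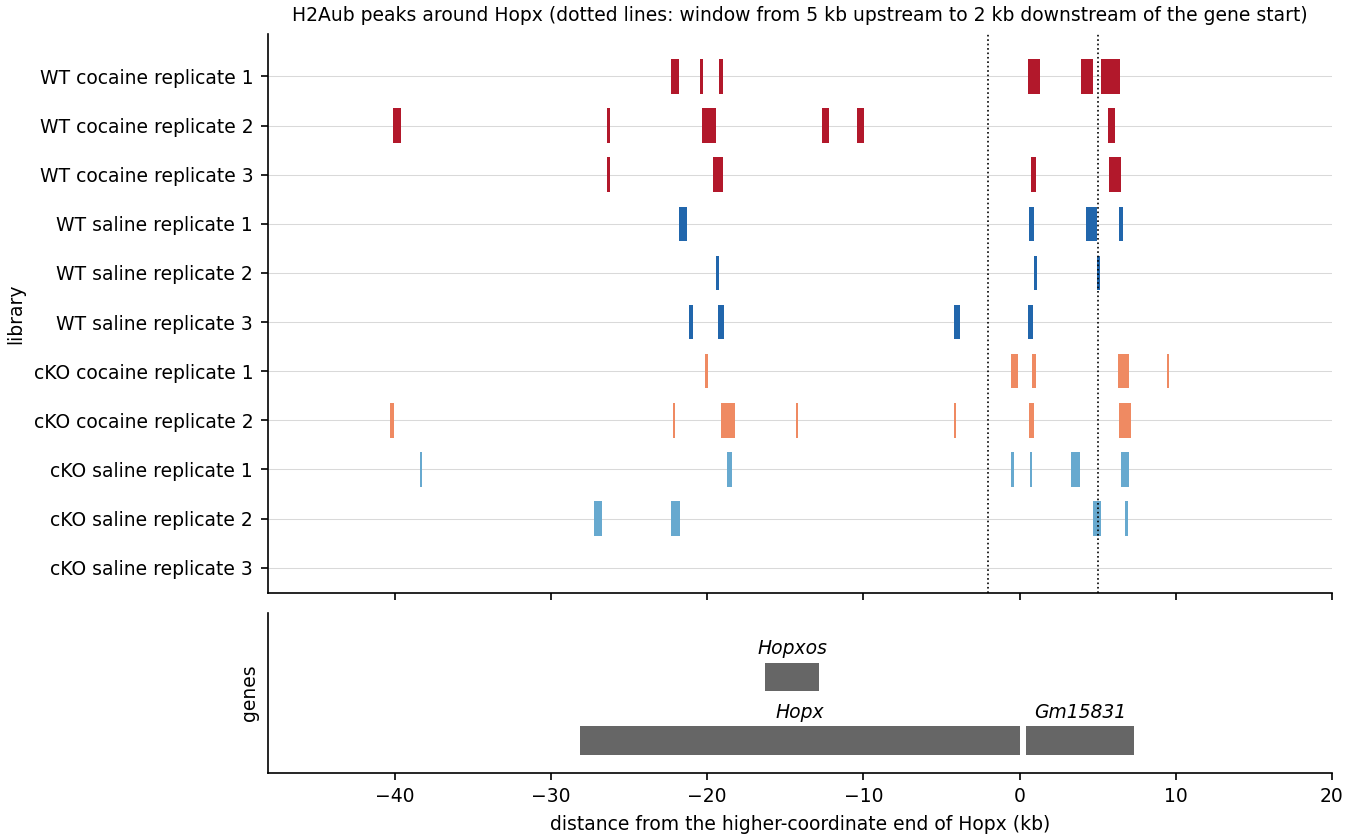
Peaks of each of the 11 H2Aub libraries (rows, coloured by group) along the gene body plus 20 kb on each side, as distance in kb from the higher-coordinate end of Hopx; the lower panel gives the extent of Hopx, Hopxos and Gm15831. Peaks gather in the first 7.2 kb beyond the gene start and 18.2 to 20.5 kb inside the body, and cKO saline replicate 3 has none.

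Of the 17 regions, 3 carried a peak in 8 of the 11 libraries each, and the one with the most libraries on a single base lay just outside the gene start. It spanned chr5:77115648-77116439, 525 to 1316 bp beyond the end of the gene. Among WT libraries it was seen in 2 of 3 under cocaine and 3 of 3 under saline, and among cKO libraries in 2 of 2 and 1 of 3. A core of 45 bp, 776 to 820 bp beyond the end, lay under the peaks of 7 libraries, the highest number on any base. The fold enrichments there ran from 3.30 in cKO cocaine replicate 2 to 4.71 in WT saline replicate 3. The region is not exclusively that of Hopx, since it falls inside the long non-coding RNA gene Gm15831 (chr5:77115529-77122452), which begins 405 bp beyond Hopx. Of the 22 peaks beyond the gene start, 21 overlapped Gm15831, and the peak lists cannot assign them to either gene.

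A second region of 8 libraries lay 5231 to 7155 bp beyond the gene start (chr5:77120354-77122278), near the far end of Gm15831. All 3 WT cocaine libraries had a peak there but 1 of 3 under saline, and in cKO mice 2 of 2 under cocaine and 2 of 3 under saline. Its fold enrichments were 3.16 to 3.82. The 3 WT cocaine peaks shared 355 bp, the only stretch of the locus that was covered in every library of a group of 3. The single WT saline peak, in replicate 1, was 286 bp wide.

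The third region of 8 libraries lay inside the gene body, 18212 to 20450 bp from the gene start (chr5:77094673-77096911). It held 9 peaks, which came in WT mice from 3 of 3 cocaine and 2 of 3 saline libraries, and in cKO mice from 2 of 2 and 1 of 3. Here the peaks of different libraries were staggered, and no base was covered in more than 4 libraries. Their fold enrichments ran from 2.98 to 4.12.

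The remaining 14 regions were seen in 4 libraries or fewer. A body region at chr5:77092789-77093815 was found in 1 library of each group, and a region 3945 to 5215 bp beyond the gene start in 4 libraries, namely WT cocaine replicate 1, WT saline replicates 1 and 2, and cKO saline replicate 2. The strongest peaks of the locus lay 116 to 557 bp inside the gene start (chr5:77114566-77115007). They occurred in cKO cocaine replicate 1, with a fold enrichment of 6.05 and a q of 2.60e-07, and in cKO saline replicate 1, with 6.18 and 2.39e-07. Those are the libraries whose lists stood apart, and none of the other 9 libraries had a peak in that region. The part played by the unusual lists was not tested.

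**Figure D2:**
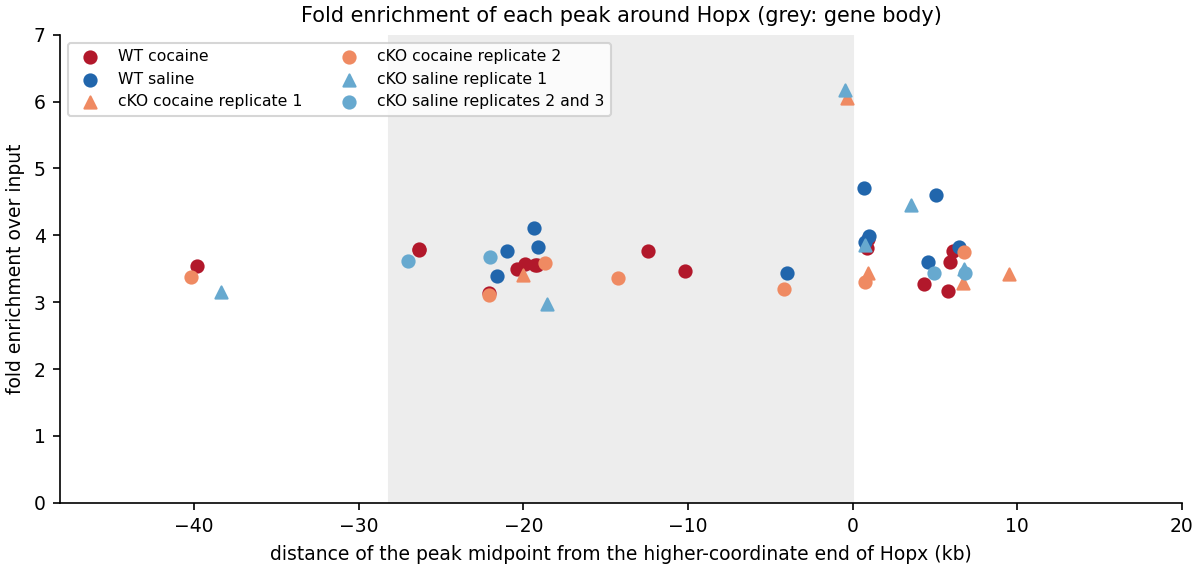
Fold enrichment over input (vertical axis, linear ratio) of each of the 49 peaks against the distance of its midpoint from the higher-coordinate end of Hopx in kb; colours are groups, triangles are the cKO replicate 1 libraries, and grey marks the gene body. All peaks lie between 2.98 and 4.71 apart from the pair at 6.05 and 6.18 in the cKO replicate 1 libraries.

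Peaks at Hopx were modest in strength. The best peak of the locus had a fold enrichment of 3.94, 3.79 and 3.82 in WT cocaine and 3.90, 4.60 and 4.71 in WT saline replicates 1 to 3. It was 6.05 and 3.75 in the cKO cocaine libraries and 6.18 and 3.68 in cKO saline replicates 1 and 2. The best peak was thus higher in WT saline replicates 2 and 3 than in any WT cocaine library, while WT saline replicate 1 lay within the WT cocaine values. In the 10 lists, 0.883 to 36.4% of all peaks were at least as enriched as the best Hopx peak. Of the 49 peaks, 39 had a q of at most 0.05 and 11 a q of at most 0.01.

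Over the whole locus every WT cocaine library had more bases under peaks than every WT saline library, in a design too small to pass the threshold. WT cocaine libraries had 3692, 2912 and 1851 bp and WT saline libraries 1787, 547 and 1312 bp. The groups did not overlap, although the lowest WT cocaine library was only just above the highest WT saline library. The means were 2818 ± 924 bp and 1215 ± 626 bp (SD, n = 3 each), a ratio of 2.32 and a difference of 1603 ± 644 bp (SE). The two-sided exact permutation test over libraries gave p = 0.1, the smallest that 3 against 3 allows, and an adjusted p of 0.97 over the 10 comparisons made. Every WT cocaine library lay above every WT saline library in 8.55% of the 21887 protein-coding genes measured in the same way, and 6.17% of them had a difference in base pairs at least as large as that of Hopx. Only 30.2 to 38.9% of coding genes had any bases under peaks in a WT cocaine list, and a gene without any cannot separate in this direction. The share among marked genes was not worked out. The study singled out Hopx from these same libraries together with RNA-seq, in which cocaine lowered Hopx in control mice. The comparison is thus not independent evidence of its direction.

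The lists of WT cocaine were also longer as a whole. Their covered length was on average 1.70 times that of WT saline, and the mean over all coding genes was 1.62 times as high. Per Mb covered in the same list, the Hopx values were 214, 194 and 178 bp under cocaine against 161, 98.5 and 156 bp under saline. The groups remained separate on that scale, with a difference of 57.0 bp per Mb (exact permutation p = 0.1). On it 4.21% of coding genes separated in that direction and 1.34% in the other, and 5.77% had a difference at least as large. With the 7271 peaks of lowest p from each list, the values were 1250, 163 and 1216 bp under cocaine against 560, 547 and 932 bp under saline, which overlap, and the difference was 197 bp (exact permutation p = 0.8). With peaks of q at most 0.01 the values were 1250, 0 and 0 bp under cocaine against 560, 195 and 332 bp under saline. All 3 saline libraries but a single cocaine library then had a peak, and the difference of 54.3 bp rested on WT cocaine replicate 1.

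The difference lay mostly in the body and the flank beyond the gene start. In the other flank WT cocaine replicate 2 alone among WT libraries had bases under peaks, 501 bp. In the body alone WT cocaine libraries had 960, 1981 and 784 bp and WT saline libraries 522, 212 and 980 bp, which overlap. Their difference was 670 bp (exact permutation p = 0.3). Beyond the gene start the values were 2732, 430 and 1067 bp against 1265, 335 and 332 bp, which also overlap. WT cocaine replicate 1 was the highest of all libraries in that flank, and WT cocaine replicate 2 in the body.

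**Figure D3:**
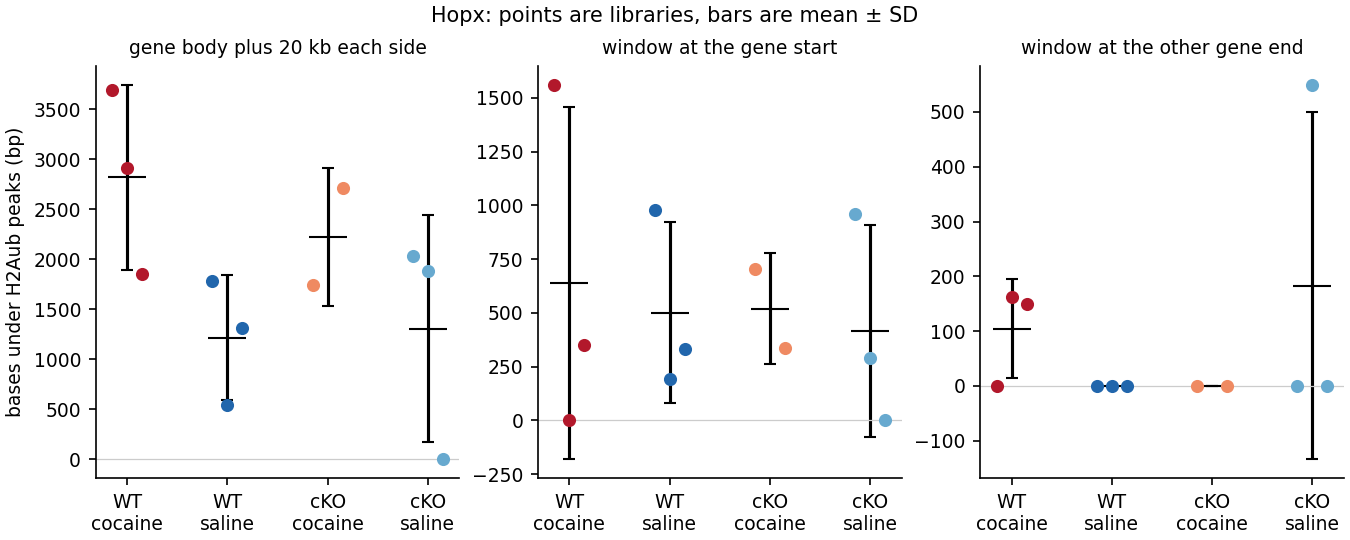
Bases under H2Aub peaks (bp, vertical axes) for the gene body plus 20 kb on each side, for the window at the gene start and for the window at the other gene end; points are libraries, horizontal bars the group mean and whiskers the SD. Over the whole locus the 3 WT cocaine libraries (1851 to 3692 bp) lie above the 3 WT saline libraries (547 to 1787 bp), and at the gene start all groups overlap.

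In cKO mice the cocaine and saline libraries overlapped. The cKO cocaine libraries had 1740 and 2715 bp and the cKO saline libraries 2038, 1883 and 0 bp. The means were 2228 ± 689 bp (SD, n = 2) and 1307 ± 1135 bp (SD, n = 3), with a difference of 920.5 ± 817 bp (SE, exact permutation p = 0.6). The value depended on single libraries. Without cKO saline replicate 3, the shortest list, the difference was 267 bp. It was 433 bp without cKO cocaine replicate 2, 1408 bp without cKO cocaine replicate 1 and 1773.5 bp without both replicate 1 libraries. Per Mb covered, the cKO cocaine libraries had 81.9 and 246 bp and the cKO saline libraries 73.9, 246 and 0 bp. In 2.68% of coding genes every cKO cocaine library lay above every cKO saline library.

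Over the locus genotype made no difference that exceeded the spread between libraries. Under saline, cKO minus WT was 91.7 ± 748 bp (SE, exact permutation p = 0.8), and under cocaine -591 ± 723 bp (SE, exact permutation p = 0.4). In the direction of the Hopx means, every cKO saline library lay above every WT saline library in 0.635% of coding genes and every WT cocaine library above every cKO cocaine library in 1.80%, and the Hopx groups overlapped in both comparisons. Under saline the sign turned to -274 bp without cKO saline replicate 1, to -196 bp without cKO saline replicate 2 and to -242.5 bp without WT saline replicate 2. It was 745 bp without cKO saline replicate 3. Under cocaine the difference was -103 bp without cKO cocaine replicate 1, -154 bp without WT cocaine replicate 1, -1074.5 bp without WT cocaine replicate 3 and -1078 bp without cKO cocaine replicate 2. The cocaine difference in cKO minus that in WT was -682.5 ± 1040 bp (SE), with an exact permutation p of 0.625 when treatment was permuted within genotype. It was 170.5 bp without both cKO replicate 1 libraries and 0.265 bp per Mb covered. In order of the mean, WT cocaine was followed by cKO cocaine, cKO saline and WT saline, and each neighbouring pair in that order overlapped.

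At the gene start itself all groups overlapped when all peaks were counted. The window from 5 kb upstream to 2 kb downstream, the span that the study counts as a promoter, held 1560, 0 and 350 bp under peaks in the WT cocaine libraries and 979, 192 and 332 bp after saline. In cKO mice it held 702 and 336 bp after cocaine and 960, 290 and 0 bp after saline. The highest library of all and a library without any peak were thus both WT cocaine, and 9 of the 11 libraries had a peak in the window.

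The WT means were 637 ± 819 bp and 501 ± 420 bp (SD, n = 3 each), a difference of 136 ± 531 bp (SE, exact permutation p = 0.8). It turned to -326 bp without WT cocaine replicate 1 and to -18.8 bp without WT saline replicate 2. The cKO means were 519 ± 259 bp (SD, n = 2) and 417 ± 492 bp (SD, n = 3), a difference of 102 ± 338 bp (SE, exact permutation p = 0.8). That turned to -80.7 bp without cKO cocaine replicate 1 and to -106 bp without cKO saline replicate 3. The cKO minus WT differences were -84.3 ± 374 bp under saline (SE, exact permutation p = 0.7) and -118 ± 507 bp under cocaine (SE, exact permutation p = 0.9). The cocaine difference in cKO minus that in WT was -33.3 ± 630 bp (SE, exact permutation p = 0.97). With the 7271 peaks of lowest p from each list, the cKO minus WT difference under saline was -266 bp (exact permutation p = 0.1). The window then held 274, 192 and 332 bp in WT saline and 0, 0 and 0 bp in cKO saline libraries, which do not overlap.

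The study keeps as H2Aub+ elements the peaks found in at least 2 replicates of a group. With the peaks of a group merged where they touched, the gene-start window held such elements in 3 of the 4 groups. WT cocaine had an element of 792 bp and cKO cocaine one of 445 bp. WT saline had a pair of elements, of 382 and 897 bp, and thus a longer marked length than WT cocaine. No element was found in cKO saline. The order of the WT groups turned when the bases that at least 2 libraries shared were counted alone, with 350 bp in WT cocaine, 227 bp in WT saline and 158 bp in cKO cocaine. In the 897 bp element the WT saline peaks shared 3 bp. A requirement for bases shared by all replicates of a group left only the 158 bp of cKO cocaine, the group with 2 libraries. The presence of an element therefore did not separate WT cocaine from WT saline at this end. The study, by contrast, reports a gain of promoter H2Aub at Hopx with cocaine. It took promoters from a gene annotation, whereas a single end with a strand from general knowledge was used here. The calls are therefore not made on like windows.

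At the other end of the gene only WT cocaine had an element. In the mirror window, from 5 kb beyond the lower-coordinate end to 2 kb inside it, WT cocaine libraries had 0, 163 and 149 bp. WT saline and cKO cocaine libraries had none, and cKO saline libraries 0, 549 and 0 bp. The WT cocaine peaks of replicates 2 and 3 coincided over 149 bp at chr5:77088735-77088883, inside the gene body and 1749 to 1897 bp from its end, with fold enrichments of 3.79 in each and q of 0.0153 and 0.0121. None of the other 9 libraries had a peak at that place, and the cKO saline peak was a separate one. This element was singled out after its values were seen. A peak in at least 2 WT cocaine and no WT saline libraries occurred in 1.75% of the 43774 gene-end windows of coding genes. The exact permutation test of the WT difference in the window, 104 bp, gave p = 0.4.

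The bodies of the neighbouring genes on chromosome 5 had fewer bases under peaks per kb than Hopx, apart from Gm15831 and Chaer1. The Hopx body had a mean of 29.6 bp under peaks per kb over the 11 libraries and a peak in 10 of them. Gm15831 had 135 bp per kb and a peak in the same number of libraries. Its bases under peaks in WT mice were 2732, 430 and 1067 bp with cocaine and 1265, 335 and 332 bp with saline, and in cKO mice 973 and 1152 bp with cocaine and 1309, 723 and 0 bp with saline. These values are nearly those of the flank beyond the Hopx start. Hopxos, the antisense transcript inside Hopx (chr5:77098830-77102313), had a body peak in 1 library, cKO cocaine replicate 2, of 139 bp. Chaer1, a long non-coding RNA known from heart to bind Polycomb repressive complex 2, lies 21497 bp from Hopx. It had a mean of 46.9 bp per kb, with 926, 227 and 0 bp in the WT cocaine libraries and none after saline, and in cKO mice 430 and 142 bp after cocaine and 176, 0 and 0 bp after saline.

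Among the nearest protein-coding genes on the lower-coordinate side, Thegl (25444 bp away) had a body peak in 6 libraries, while Arl9 and Srp72, which encodes a subunit of the signal recognition particle, had none. In the windows at their gene ends, however, Thegl had a peak in 7 libraries, Arl9 in 6 and Srp72 in 2, against 10 for Hopx. The better covered Arl9 window held 668, 0 and 302 bp in WT mice under cocaine and 453, 0 and 426 bp under saline. On the other side Spink2, a serine protease inhibitor gene, had a body peak in 3 libraries. Rest, which encodes the repressor of neuronal genes in non-neuronal cells, also had one in 3 libraries and Noa1 in 2. The body means of these 6 genes were at most 15.5 bp per kb. Gm15831 and Chaer1 were added to the neighbours after their values were seen.

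**Figure D4:**
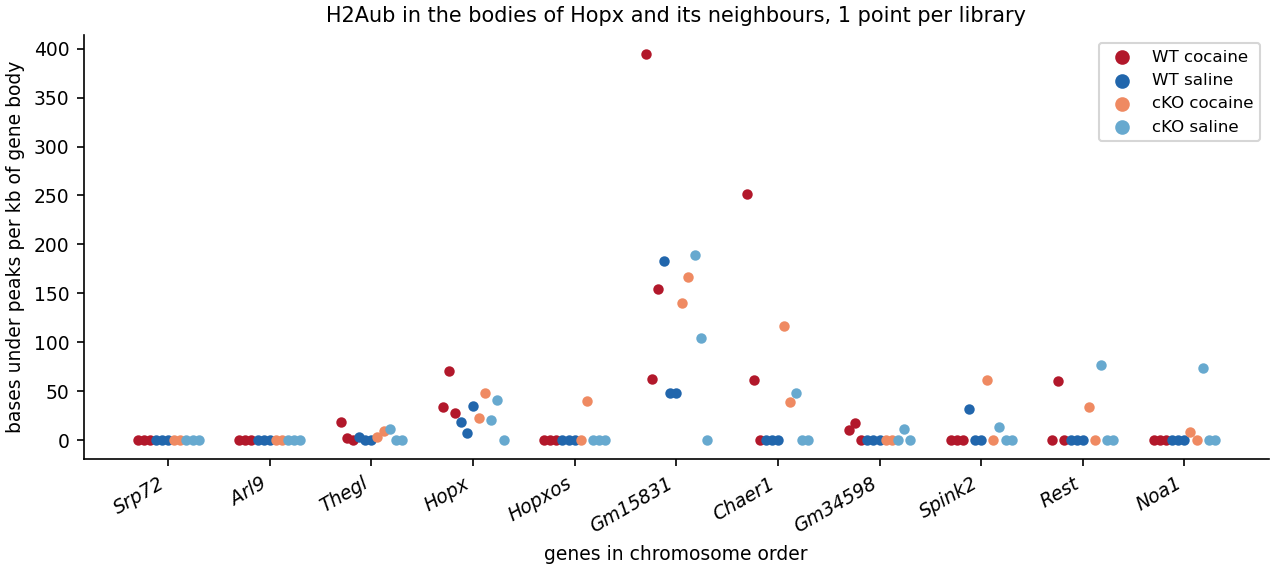
Bases under H2Aub peaks per kb of gene body (vertical axis) for Hopx and its neighbours in chromosome order, 1 point per library, coloured by group. Gm15831 is highest, with a mean of 135 bp per kb against 29.6 bp per kb in Hopx, and Srp72 and Arl9 have none.

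Against the genome, Hopx was marked more often than most genes and far more thinly than the classical Polycomb targets. A peak in the body plus 20 kb was present in at least 10 of 11 libraries in 14.6% of coding genes, Hopx among them. A peak in a window at either gene end was present in at least 10 of 11 libraries in 7.31%, Hopx again among them, and the median coding gene had one in 1 library. Hopx reached that count only with both ends considered. WT cocaine replicate 2 had 0 bp at the gene start and 163 bp at the other end. In the 10 libraries with a peak, 4.95 to 18.4% of coding genes had at least as many bases under peaks per kb of body plus flanks as Hopx. With the better covered end taken in each library, Hopx had a mean of 557 bp under peaks in the window.

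All 7 Polycomb reference genes, which are homeobox and paired-box genes silent in adult thalamus, had a gene-end peak in all 11 libraries with means of 4076 to 7000 bp. Lbx1, a homeobox gene of spinal cord and muscle, was covered over all 7000 bp of its window. None of the 10 housekeeping genes had a peak in 10 or more libraries and 6, among them Tbp and Ppia, had none in any. In the number of libraries with a peak at either end Hopx, with 10, was next to the Polycomb list. In mean bases under peaks (557 bp) it was nearer to the housekeeping list.

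Of 8 genes for partners and regulators of HOPX, 2 had a gene-end peak in all 11 libraries, beside the 7.31% of coding genes with one in at least 10. These were Gata4 and Nkx2-5, transcription factors of the heart. Myocd, the coactivator of serum response factor in muscle, had one in 9 libraries, and Srf itself in 1. Hdac2, the gene of a histone deacetylase, Epc1 and Smad4 had a peak in 1 library each and Smad1 in 2. The median over the 8 genes was 1.5 libraries, against 1 over all coding genes and 10 for Hopx.

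Of 11 astrocyte and radial glia genes, the cell types in which Hopx is used as a marker, 3 had a peak in all 11 libraries, where 7.31% of coding genes had one in at least 10. These were Sox9 and Hes5, transcription factors of neural progenitors, and Nes, the intermediate filament nestin. Slc1a3, a glutamate transporter, had one in 9 libraries and Vim in 8, Gfap in 6 and Aqp4, the astrocyte water channel, in none. The median over this list was 6 libraries, against 1 over all coding genes. Of 7 thalamic neuron genes, Gbx2 and Lef1 had a peak in all 11 libraries, and Slc17a6, the gene of vGluT2, had one in 4. The median was again 6, beside the same 7.31% and median of 1 over all coding genes. Of the genes that the study names beside Hopx, C1ql3 had a gene-end peak in 9 libraries and Scml4 in 6. By group, C1ql3 had one in 2 WT libraries under cocaine and 3 under saline, and in 2 cKO libraries under each treatment. Scml4 had one in 3 WT libraries under cocaine and 1 under saline, and in 1 cKO library under each treatment. Hopx had one in 3 and 3 WT and in 2 and 2 cKO libraries, but in WT cocaine replicate 2 at the lower-coordinate end only. The study named all 3 genes from these samples together with its RNA-seq, so their values are a description.

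**Figure D5:**
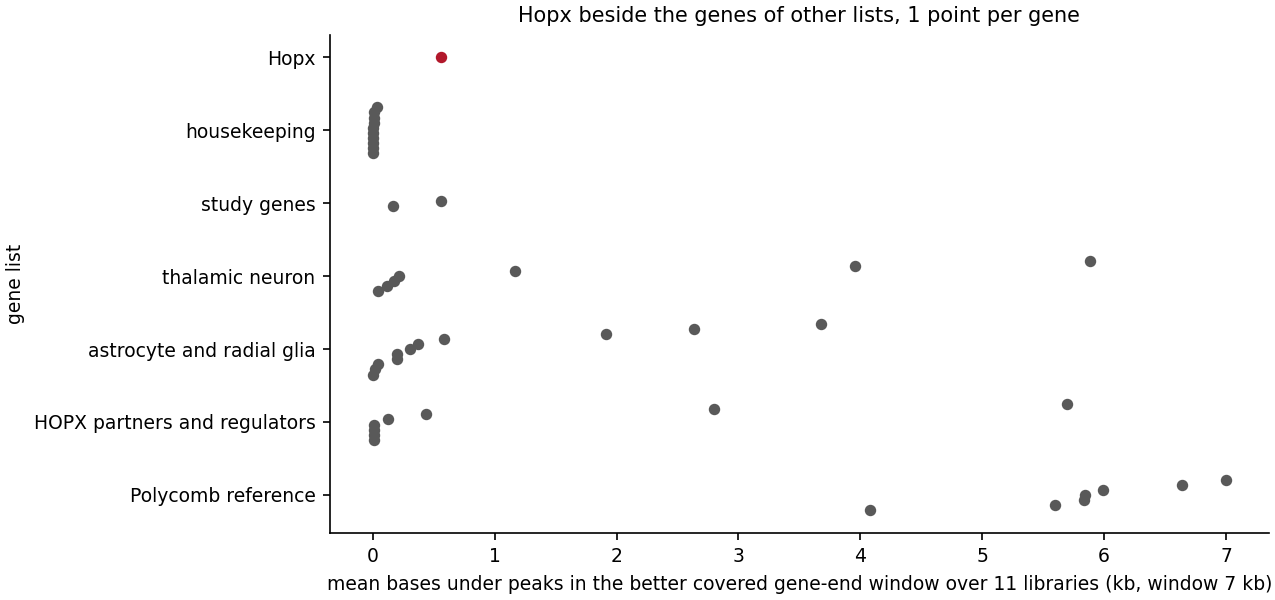
Mean bases under H2Aub peaks in the better covered gene-end window over the 11 libraries (horizontal axis, kb, window of 7 kb), 1 point per gene, by gene list. Hopx (red, 557 bp) lies above all 10 housekeeping genes and below all 7 Polycomb reference genes (4076 to 7000 bp).

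The genes whose bases under peaks in the body plus 20 kb ran most alike to Hopx over the 11 libraries were Nr4a2, Ptgs1, Bnc2, Pmaip1 and Adamtsl2, with Pearson r of 0.983, 0.982, 0.980, 0.976 and 0.976 on the log2(bp + 100) scale. They were the highest of 6785 coding genes with a peak in at least 6 libraries. All values come from the same 11 lists, and the covered length of the whole list correlated with Hopx at 0.734. Nr4a2, an orphan nuclear receptor gene, had 15157, 12654 and 10977 bp in WT mice under cocaine and 11658, 7810 and 10066 bp under saline. Ptgs1, which encodes cyclooxygenase 1, had 4770, 5389 and 3614 bp against 2047, 1111 and 1850 bp in the same libraries. In cKO saline replicate 3, where Hopx had no peak, Nr4a2 had 4938 bp, Pmaip1 810 bp, Bnc2 197 bp, and Ptgs1 and Adamtsl2 none. That library was the lowest for Hopx and for each of these genes. How far the correlations rest on it was not tested.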

How the data were processed

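The authors removed adapters with Cutadapt and mapped the reads to mm10 by Bowtie2 (2.3.4.1), per the labels and the study's methods. Broad peaks were called for each library by MACS2 (2.1.1.20160309.3) with total input as control. Each deposited list gives peak positions, a whole-number score, the fold enrichment over input as a linear ratio, and −log10 values of p and q. The score in the deposited lists is a truncated multiple of the −log10 q and was not used. Some deposited peaks have a q past the cut-off named in the study's methods, up to 0.0846 around Hopx. The 4 input libraries were not analysed here. The lists hold no read counts, so the depth of each library is unknown beyond a minimum that the study's reporting form gives for all samples, and no counting interval can be given.

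Bases under peaks were summed per library over the gene body plus 20 kb and over windows from 5 kb outside to 2 kb inside a gene end, with gene positions from the RefSeq table of GRCm38.p6 (mm10 coordinates). No sequence or strand is in that table, so none was used. Group means were compared by two-sided exact permutation tests over libraries, adjusted by Benjamini-Hochberg over 10 comparisons. With 2 against 3 or 3 against 3 libraries p cannot go below 0.1, and for the difference of cocaine effects it cannot go below 0.005. Each library is a pool of animals. Replicate numbers are those of the sample titles, and the names of some deposited lists carry other numbers. Besides Hopx, the genes named are the 3 nearest coding genes on each side, Hopxos, the 5 genes most alike by Pearson r, and members of the gene lists. Gm15831 and Chaer1 were added after their values were seen. The members, lists and tests were chosen with earlier results of these data known. Calculations used Python 3.11.15, numpy 2.4.6 and scipy 1.17.1, and were tested on simulated data. Alternatives were peak thresholds, list lengths, windows, left-out libraries and a replicate block.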

Additional observations from a re-analysis of the deposited data

How the results depend on the processing

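No comparison passed a threshold under any alternative run, so the directions alone can be compared. Of the alternatives 66 kept the direction of the locus differences and 11 turned it, and for the gene-start window 48 did not turn it and 24 did. The window at the lower-coordinate end is counted among the alternatives to the gene-start window. These 48 include a difference of 0 between cKO cocaine and cKO saline with equal numbers of peaks. The replicate numbers, taken from the sample titles, did not pair the WT libraries (same-number correlations of 0.0646, 0.00120 and 0.0424 over genes). Same-numbered cKO cocaine and saline libraries did deviate together (0.450 and 0.365), but with 2 pairs, fewer than are needed to call them paired. With 2 cKO cocaine libraries their deviations are mirror images, so these values are not separate evidence. Replicate 2 under cocaine also went with replicate 3 under saline (0.208). With a replicate block the WT locus difference was 1603 bp (exact sign-flip p = 0.25), the cKO one 267 bp, and the cKO gene-start difference turned to -106 bp. Leaving out 1 library at a time gave locus differences of 1166 to 2087 bp in WT, 267 to 1408 bp in cKO, -274 to 745 bp for genotype under saline, -1078 to -103 bp under cocaine and -1336 to -195 bp for the difference of cocaine effects. For the gene-start window the ranges were -326 to 454, -106 to 374, -356 to 155, -436 to 344 and -352 to 428 bp. In that window the genotype difference under saline turned without WT saline replicate 1 (155 bp) or cKO saline replicate 3 (124 bp), and under cocaine without WT cocaine replicate 1 (344 bp) or cKO cocaine replicate 2 (65.3 bp). The difference of cocaine effects there turned without WT cocaine replicate 1 (428 bp), WT saline replicate 2 (121 bp) or 3 (51.2 bp), cKO cocaine replicate 2 (150 bp) or cKO saline replicate 1 (238 bp).

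With q at most 0.01 the cKO difference turned to -102.5 bp over the locus and at the gene start, and the genotype difference under saline to -42.3 bp over the locus and 101 bp at the gene start. With q at most 0.05 the difference of cocaine effects at the gene start was 63.3 bp. With equal numbers of peaks the locus values were -293 bp for genotype under saline and 289 bp for the difference of cocaine effects. Per Mb covered they were -32.0 and 0.265 bp, and at the gene start the WT difference was -12.7 and the difference of cocaine effects 20.2 bp. Without both cKO replicate 1 libraries the locus values were -274 bp for genotype under saline and 170.5 bp for the difference of cocaine effects, which was 55.3 bp at the gene start. With 2.5 kb on each side of the gene start the cKO difference was 401 bp, the genotype difference under cocaine 138 bp and the difference of cocaine effects 269 bp. A flank of 50 kb kept the directions over the locus but gave larger values. They were 2666 bp in WT, 1008 bp in cKO, 451 bp for genotype under saline, -1207 bp under cocaine and -1658 bp for the difference of cocaine effects. The window at the lower-coordinate end, an alternative chosen after seeing the data, gave -183 bp in cKO and 183 bp for genotype under saline. Bases shared by all replicates of a group came to 0 bp in WT cocaine and in WT saline. The cause of these turns was not tested. Windows at every annotated transcript start were not run, since the gene table used gives no transcript starts.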
